A study of Mus musculus with 2 samples.

Results

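The genes described here are 37 nuclear receptor genes, out of 21887 protein-coding genes measured. They are the members of the family other than the retinoic acid, retinoid X and NR4A receptors, and were chosen by gene name. Nuclear receptors are transcription factors that are switched by small lipid-soluble ligands such as thyroid hormone, vitamin D, bile acids, oxysterols, fatty acids and steroids. They bind DNA through zinc fingers at copies of a short half-site, commonly AGGTCA, as monomers, homodimers or heterodimers with a retinoid X receptor. Some members have no known physiological ligand and are called orphans. In the liver they set lipid, bile acid, drug and glucose metabolism in hepatocytes, and ligands of several of them restrain the activation of hepatic stellate cells, the vitamin A-storing pericytes of the sinusoid.

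Chromatin accessibility was profiled by ATAC-seq, in which a transposase cuts open DNA, in a single group with 2 samples, called A and B. The samples were sorted liver nuclei of healthy, chow-fed C57BL6/JBomTac mice, whose age the labels do not give. The mice carried the allele Gt(ROSA)26Sortm1(mCherry-Rpl10a-Flop)Kra together with the transgene Tg(Lrat-cre)1Rshw (B6.Cg). Cre was driven by the promoter of Lrat, a gene of retinol storage, and nuclei were sorted on the mCherry-RPL10A tag, so both samples hold cells marked by Lrat activity. There is no second condition, and no label ties the pair to different mice, so how far A and B differ may reflect technical variation alone.

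The list of A held 36577 entries and that of B 28794. Every peak name in the list of B begins with the word Oil, and none in that of A does, although both labels say chow and control. The values of each library alone are therefore given beside the main counts. An A entry that shares at least 1 bp with a B entry is called a replicated peak, and there were 23452 of these, or 64.1% of the entries of A. The read depth of the libraries is unknown, since the lists hold no read counts. All 10 stellate markers, among them Lrat, Reln and Pdgfrb, had a replicated peak at a start site, or gene end if none was listed. No marker of hepatocytes (6), Kupffer and myeloid cells (6), sinusoidal endothelial cells (5), cholangiocytes (4) or lymphocytes (3) had one. Within 20 kb of the gene, replicated peaks were present at 1, 1, 3, 0 and 1 of these, and the loci of Alb, Adgre1, Stab2, Krt19 and Cd3e had none. In such bulk lists, a region open in few nuclei and a region weakly open in all nuclei cannot be told apart.

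Peaks were counted in a locus, meaning the gene body plus 20 kb beyond each end. A start is open here when a replicated peak lies within 1000 bp of a RefSeq start site. For Hnf4g, Nr3c1, Nr5a1, Thra and all other genes without a listed start site, either end of the gene was used in place of the start. A start site inside these genes would be missed, and a peak there would count as away from starts. Each peak carries a fold enrichment, the authors' value for its height over the local background of the same library. It is not scaled between libraries. The last peaks inside the 20 kb limit lay 19.9 kb from Thra (10.4 in A, 9.05 in B) and 19.8 kb from Nr1d1 (9.92 and 7.14). The first outside it lay 20.2 kb from Nr1d1 (11.4 and 6.88) and 20.3 kb from Esrra (20.7 and 13.8).

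Of the 37 receptor genes, 29 (78.4%) had at least 1 replicated peak in the locus, against 64.6% of all protein-coding genes. Entries of A were present at 32 receptors, against 71% of all genes, and entries of B at 29, against 67.6%. Only 13 (35.1%) had an open start, against 43.1% of all genes, while 17 had an A entry at a start (48.2% of all genes) and 14 a B entry (46.1%). A peak inside the gene body was replicated at 24 receptors (64.9%), against 48.7%. Receptor genes are longer than most, with a median of 56.8 kb against 17.2 kb, which gives a peak more room. Per 100 kb of locus there were 1.51 replicated peaks, against 1.35 over all protein-coding loci. The median was 2 per receptor against 1 per gene. The loci together held 150 entries of A, 98 of B and 87 distinct replicated peaks. Genes are not replicates, so these shares are a description of the libraries and carry no test.

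The receptors were sorted into 5 classes by where they are known to act. These classes were drawn up with earlier results of these data known. Open starts were found at 7 of 7 broadly used receptors, 2 of 9 stellate and 2 of 10 hepatocyte receptors. They were found at 1 of 6 steroidogenic and reproductive and 1 of 5 sensory, neural and metabolic organ receptors. Over all protein-coding genes the share with an open start was 43.1%. Replicated peaks anywhere in the locus were present at 8 of 9 stellate receptors (88.9%), 7 of 10 hepatocyte receptors (70%) and 4 of 6 steroidogenic and reproductive receptors (66.7%). Counted in the list of A these numbers were 9, 8 and 4, and in that of B 8, 7 and 4. They were 3 of 5 in the sensory class and 7 of 7 in the broad class. With 5 to 10 genes a class, the shares of the hepatocyte, steroidogenic and sensory classes lie near the background of 64.6%.

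**Figure D1:**
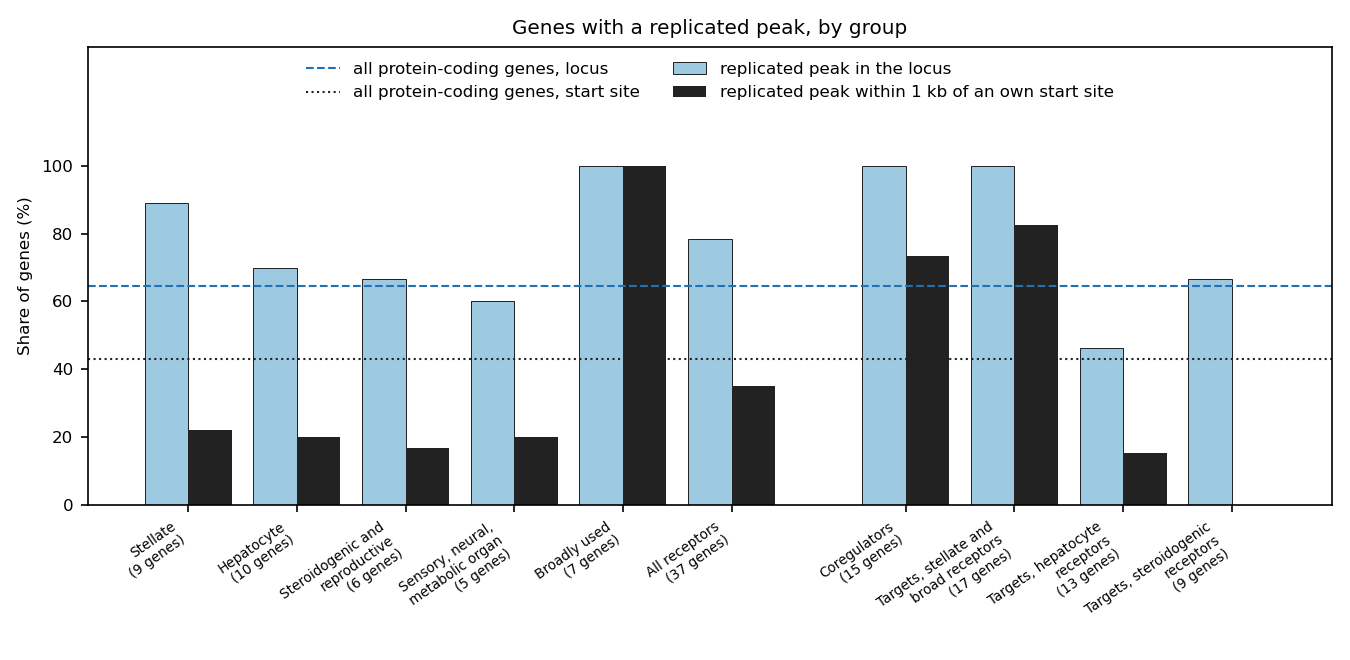
Share of genes (%) with a replicated peak in the locus (light bars) and within 1 kb of an own start site (black bars), for 5 receptor classes, all 37 receptors and 4 lists of coregulators and target genes; the lines mark the shares over all 21887 protein-coding genes. Black bars reach 100% in the broadly used class and 16.7% to 22.2% in the other 4 classes.

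The density of peaks away from all gene starts differed more between the classes than the share of genes with a peak. Stellate receptor loci held 29 such peaks, or 1.92 per 100 kb, against 0.698 over all protein-coding loci. The density was 1.04 at hepatocyte receptors (14 peaks), 0.835 at steroidogenic and reproductive receptors (8 peaks), 0.732 at broadly used receptors (6 peaks) and 0.168 in the sensory class (2 peaks). Peaks shared by the loci of Thra and Nr1d1 count in both the stellate and the broad class. Ppard, Thra and Rora held 9, 8 and 7 of the 36 replicated peaks in stellate receptor loci, counting those at starts. Whether the stellate density holds without these genes was not tested. A receptor's own start was the nearest one for 21 of 36 replicated peaks at stellate and 11 of 21 at hepatocyte receptors. It was so for 10 of 10 at steroidogenic and reproductive receptors, 11 of 22 at broadly used receptors and 3 of 3 in the sensory class. Of all 87 replicated peaks, 32 (36.8%) lay at a start of some protein-coding gene, against 40.1% of replicated peaks genome-wide. The shares were 19.4% at stellate receptors and 72.7% at broadly used receptors. The mean count was 4 ± 3.2 (SD over 9 genes) replicated peaks per locus at stellate receptors, 2.1 ± 2.23 (SD over 10 genes) at hepatocyte receptors and 1.67 ± 1.63 (SD over 6 genes) at steroidogenic and reproductive receptors. The classes overlapped, with 0 to 9, 0 to 7 and 0 to 4 peaks per gene. The loci of these classes held 72, 31 and 17 entries of A and 41, 26 and 11 of B, and 29 of the 72 stood at Rora.

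**Figure D2:**
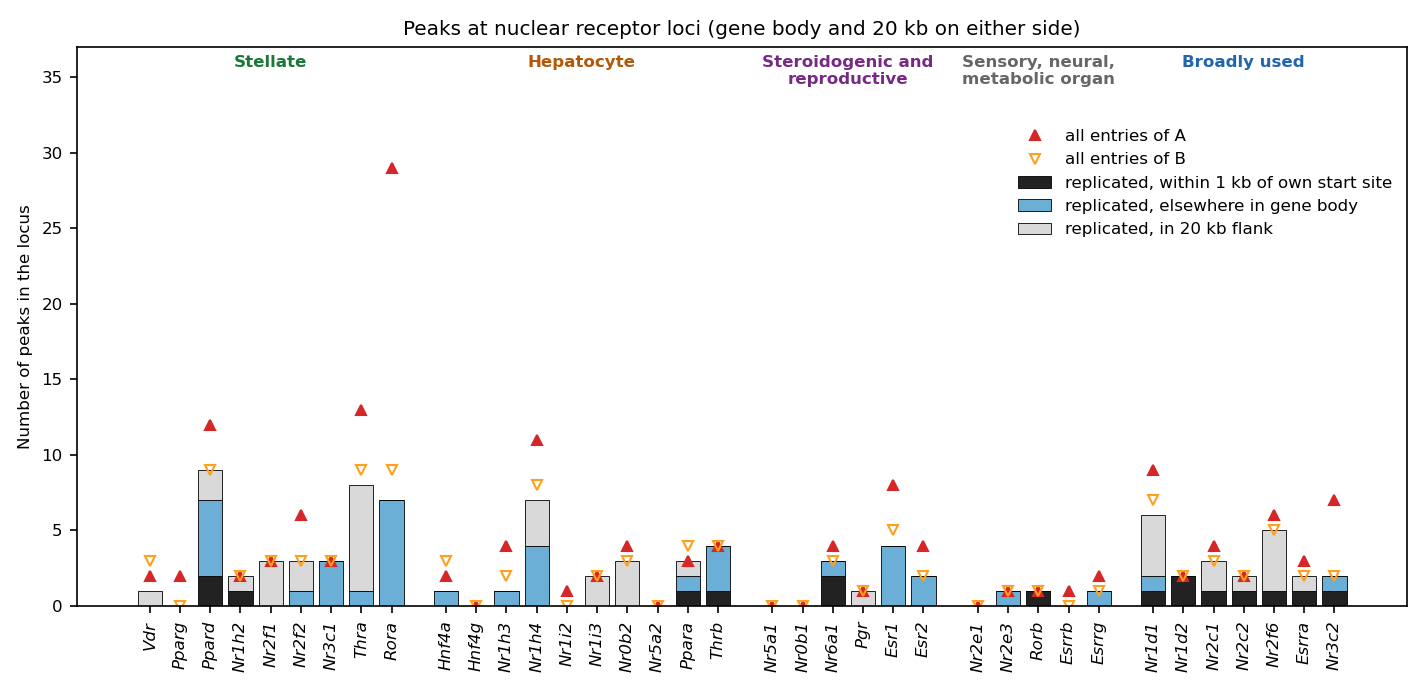
Number of peaks in each receptor locus, by class; stacked bars give replicated peaks within 1 kb of an own start (black), elsewhere in the body (blue) and in the 20 kb flanks (grey), and triangles give all entries of A (red) and B (orange). Ppard, Thra, Rora and Nr1h4 have the tallest bars, with 9, 8, 7 and 7, and Rora stands apart by its 29 entries in A against 9 in B.

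To show what the open and closed starts look like, the 250 bases upstream of 7 start sites are printed 5′ to 3′, from the RefSeq promoter table for GRCm38.p6, the assembly of mm10. They were chosen after the values were seen, as examples of open starts (Ppard, Thrb, Nr1d2, Nr2f6) and closed starts (Pparg, Nr0b2, Nr0b1), each at the most upstream start site of the gene. Capitals mark every match, on either strand, to the GC box GGGCGG, the TATA box TATAAA, the receptor half-site AGGTCA and the E-box CACGTG.
Ppard, chr17:28232504-28232753, plus strand: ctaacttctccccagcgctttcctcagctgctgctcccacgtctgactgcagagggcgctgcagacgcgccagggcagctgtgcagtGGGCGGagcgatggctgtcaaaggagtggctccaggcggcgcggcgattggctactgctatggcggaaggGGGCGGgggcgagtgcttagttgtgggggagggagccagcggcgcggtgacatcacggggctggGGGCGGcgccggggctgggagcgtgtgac
Thrb, chr14:17660710-17660959, plus strand: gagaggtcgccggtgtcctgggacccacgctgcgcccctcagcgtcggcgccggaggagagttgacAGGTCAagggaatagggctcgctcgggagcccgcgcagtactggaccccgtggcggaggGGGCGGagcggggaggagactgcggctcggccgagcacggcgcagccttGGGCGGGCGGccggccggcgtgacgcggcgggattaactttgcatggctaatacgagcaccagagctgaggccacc
Nr1d2, chr14:18239107-18239356, minus strand: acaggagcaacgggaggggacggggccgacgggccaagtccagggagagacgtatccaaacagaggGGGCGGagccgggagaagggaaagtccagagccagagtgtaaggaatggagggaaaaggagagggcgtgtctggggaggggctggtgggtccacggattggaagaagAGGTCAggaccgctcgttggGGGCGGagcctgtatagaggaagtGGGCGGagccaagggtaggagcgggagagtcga
Nr2f6, chr8:71381953-71382202, minus strand: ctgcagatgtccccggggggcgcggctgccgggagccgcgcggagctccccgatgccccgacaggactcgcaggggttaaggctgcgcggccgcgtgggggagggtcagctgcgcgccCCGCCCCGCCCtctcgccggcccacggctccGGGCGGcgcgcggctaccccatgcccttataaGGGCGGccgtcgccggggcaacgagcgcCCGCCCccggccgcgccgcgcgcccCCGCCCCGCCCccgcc
Pparg, chr6:115360894-115361143, plus strand: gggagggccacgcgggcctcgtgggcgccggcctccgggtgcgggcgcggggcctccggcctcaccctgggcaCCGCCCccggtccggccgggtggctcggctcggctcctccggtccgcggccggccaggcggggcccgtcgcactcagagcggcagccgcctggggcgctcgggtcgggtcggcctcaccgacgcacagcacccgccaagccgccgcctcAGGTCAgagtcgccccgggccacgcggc
Nr0b2, chr4:133553126-133553375, plus strand: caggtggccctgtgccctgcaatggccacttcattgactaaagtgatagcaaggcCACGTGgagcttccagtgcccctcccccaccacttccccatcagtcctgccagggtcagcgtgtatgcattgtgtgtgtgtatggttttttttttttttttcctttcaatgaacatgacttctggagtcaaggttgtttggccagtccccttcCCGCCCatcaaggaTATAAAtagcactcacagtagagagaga
Nr0b1, chrX:86191525-86191774, plus strand: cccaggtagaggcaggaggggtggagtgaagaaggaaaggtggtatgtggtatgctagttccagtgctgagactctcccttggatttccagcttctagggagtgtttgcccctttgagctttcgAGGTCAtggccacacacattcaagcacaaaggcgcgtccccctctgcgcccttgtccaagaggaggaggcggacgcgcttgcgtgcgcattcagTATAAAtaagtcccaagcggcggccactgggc
The 4 open examples carry 3, 3, 3 and 7 GC boxes and no TATA box. The closed starts of Nr0b2 and Nr0b1 carry a TATA box, 28 and 32 bases upstream, and hold 3 and 11 CpG dinucleotides. The closed Pparg start has 38 CpG dinucleotides, more than any other closed receptor start, and a GC content of 82.4%, the same as the open Nr2f6 start with 42.

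The promoter table matched 33 of the 37 receptors, with 47 start sites, of which 13 were open. The 250 bases upstream of open receptor starts held a median of 18 CpG dinucleotides and those of the 34 closed starts a median of 6. Over all 21263 start sites compared, the medians were 17 at open and 4 at closed starts. Among starts with at least 15 CpG dinucleotides, 10 of 16 receptor starts were open (62.5%), against 72.1% of all starts in that range. Between 5 and 14 the numbers were 2 of 15 (13.3%) against 46.2%, and below 5 they were 1 of 16 (6.25%) against 7.48%. Start sites of 1 gene share their locus and are not independent. In the CpG-rich range, the broadly used receptors had 6 of 6 open and the others 4 of 10. The closed CpG-rich starts were those of Pparg, Nr2f1, Rora and Nr2e1 and a pair at Esrrg, and the start of Rora had an entry in A alone. Nr6a1 was the receptor with an open start and under 5 CpG dinucleotides, with 4 in upstream bases that were 37.6% GC.

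**Figure D3:**
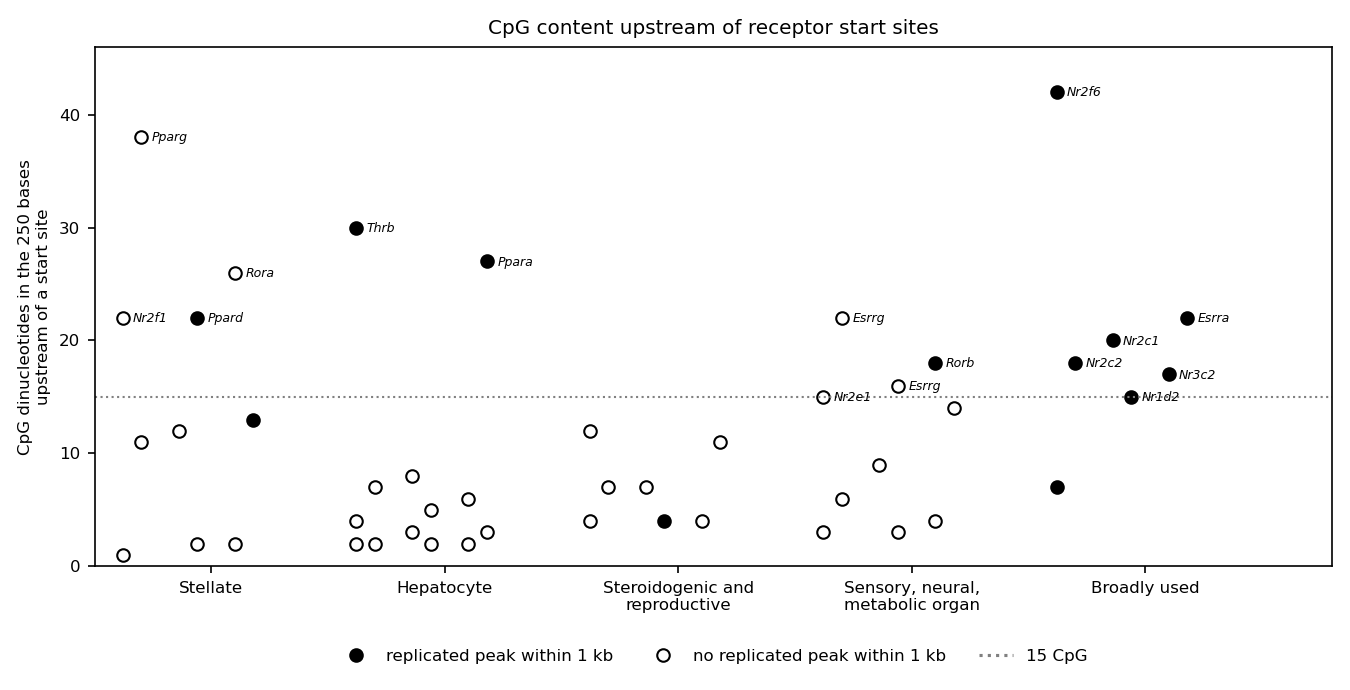
Number of CpG dinucleotides in the 250 bases upstream of 47 receptor start sites (y axis), by class; filled circles have a replicated peak within 1 kb and open circles have none, and the side-to-side position only separates the points. Filled circles lie mostly above the dotted line at 15, and the open circles above it include Pparg at 38 and Rora at 26.

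Of 11 motifs searched on both strands, the GC box GGGCGG was the most frequent, at 9 of 13 open and 9 of 34 closed receptor starts (69.2% and 26.5%, against 64.3% and 26.5% over all starts). TATAAA was found at 0 of 13 open and 7 of 34 closed receptor starts, against 4.85% and 16.7% over all starts. The half-site AGGTCA stood at 2 open starts, Thrb and Nr1d2, and at 6 closed ones, of Pparg (at a pair of starts), Nr1h4, Nr5a2, Nr0b1 and Nr6a1. Over all start sites 12.8% hold it. Direct repeats of this half-site with 1, 3 or 4 bases between the copies matched no receptor start and at most 0.0423% of all starts. The E-box CACGTG stood at 4 closed starts, of Nr1i3, Nr0b2, Thrb (downstream start) and Esr2, and at 6.63% of all starts. The glucocorticoid-type palindrome ACANNNTGT matched 1 receptor start, of Nr2e3 (5.19% of all), the AP-1 site TGANTCA 3 (6.13%), and the GATA-type site AGATAA 4 (8.81%), all closed. The full NFI palindrome matched none, against 0.0329% of all. A match is a match of letters only.

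Ppard, which encodes the fatty acid sensor PPAR-delta, had the most replicated peaks, with 12 entries in A, 9 in B and 9 in both. Only 0.772% of protein-coding genes had 9 or more. Ppard is 68.7 kb long, against a median of 17.2 kb over all protein-coding genes, and the share takes no account of length. The gene spans chr17:28232754-28301469. A peak over its start, at chr17:28232476-28232825, had fold enrichments of 17 (A) and 16.3 (B), and a second start peak, at chr17:28233101-28233282, had 7.55 and 5.29. Further peaks lay 8.34 kb upstream of the gene, at chr17:28224064-28224419 (17.6 in A and 14.9 in B), and in a run of 5 between 14.9 and 29.1 kb downstream of the start, with 7.2 to 11.5 in A and 6.49 to 10.6 in B. The strongest in the locus, at chr17:28313275-28313617 (22.5 and 19.3), lay at a start of the neighbour Fance. Of its 9 peaks, 8 had the Ppard start as the nearest one.

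The other PPAR genes differed from Ppard. Pparg, which encodes the regulator of fat cell identity that is known as a brake on stellate cell activation, had no replicated peak over chr6:115360879-115490404 and its flanks. A had 2 entries in the body, with fold enrichments of 6.14 and 8.09, and B had none. No entry of either library lay at any of its 3 start sites. Ppara, the fatty acid oxidation regulator counted here with hepatocyte receptors, had an open start, at chr15:85735246-85735630, with 18 in A and 17.7 in B. It stood at percentile 90.5 of all entries of A and 92.9 of B. A peak 11 kb into the gene, at chr15:85746817-85747109, had 21.7 in A and 8.92 in B. Another replicated peak, 4741 bp beyond the gene, lay at a start of Cdpf1 (19.7 and 10.7). In all the locus held 3 entries of A, 4 of B and 3 in both.

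Vdr, which encodes the vitamin D receptor, had no peak of either library in the gene body or at its start. The gene spans chr15:97854427-97908296. Its locus held 2 entries of A and 3 of B, and the single replicated peak, at chr15:97840111-97840457, had 8.96 in A and 6.64 in B. This peak lay inside Hdac7, 4.04 kb from a start of that gene and 67.8 kb from the start of Vdr. The A entry shared 81 bp with the stronger of its B entries, the smallest overlap among the replicated peaks of these loci. It was lost when entries had to cover each other by at least 50%.

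Both COUP-TF genes, orphan receptors of mesenchymal and venous identity, had replicated peaks outside the window at their starts. Nr2f1 (chr13:78188971-78198873) had 3 entries in A and 3 in B, all replicated, in a row 1.49, 2.71 and 4.95 kb upstream of its upper start. Their fold enrichments were 9.31, 7.45 and 5.14 in A and 8.92, 6.62 and 5.2 in B, falling with distance in both libraries. The last value is among the lowest of either list, at percentile 0.837 in A and 0.768 in B. Nr2f2 (chr7:70351946-70366746) had 6 entries in A, 3 in B and 3 in both. One replicated peak lay 4.76 kb into the gene, at chr7:70361705-70361990 (8.73 in A and 10.3 in B), and the others 20.1 and 31.6 kb downstream of the start (7.58 and 9.72, and 6.88 and 7.38). All 3 were higher in B than in A, while 56 of the 87 replicated peaks were higher in A. All replicated peaks of both genes had the gene's own start as the nearest one.

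Nr3c1, which encodes the glucocorticoid receptor, had 3 entries in each library, all replicated and all inside the gene at chr18:39410545-39519421. They had 9.46, 9.4 and 9.35 in A and 9.06, 10.2 and 9.98 in B. None lay within 1000 bp of a gene end. Only the ends were used for Nr3c1, so whether any of them lies at a start site inside the gene is not known. Nr1h2, which encodes the oxysterol receptor LXR-beta, had 2 entries in each library, both replicated. Its start was open at chr7:44553888-44554133, with 16.1 in A and 9.2 in B, and the second peak lay 531 bp beyond its other end, at a start of Pold1, with 23.1 and 23.5.

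Thra and Nr1d1 overlap tail to tail on chromosome 11, and 5 replicated peaks stood in both loci. Thra, which encodes a thyroid hormone receptor, had 13 entries in A, 9 in B and 8 in both, yet only 1 of the 8, at chr11:98747467-98747715, lay inside the gene and nearest to one of its ends (11.4 in A and 6.88 in B). A had entries near its lower end, with 8.26 and 7.46, that B lacked. The strongest peak of the locus, at chr11:98729319-98729581 (25.9 and 18.8), lay at a start of Med24. Nr1d1, which encodes the heme-binding clock repressor REV-ERB-alpha, had 9 entries in A, 7 in B and 6 in both. Its start, at chr11:98775199-98775548, was open at a low height, with 6.96 in A and 6.4 in B, at percentiles 13.5 and 8.49. A peak of 497 bp, 1.15 kb into the gene, had 9.33 and 8.08, and one at a start of Msl1 9.92 and 7.14. Upstream of Nr1d1 lay a series at 7.9, 11.2 and 13.5 kb, with 6.04, 5.75 and 10.4 in A and 7.77, 5.81 and 9.05 in B. With 12.6 replicated peaks per 100 kb, the Nr1d1 locus was the densest of the 37, followed by Thra with 11.7 and Nr2f6 with 10.4.

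Rora, which encodes a constitutive activator of clock and lipid genes, showed the widest gap between the libraries. The locus of this 735 kb gene had 29 entries in A and 9 in B, of which 7 were replicated. Thus 24.1% of the A entries were replicated (95% Wilson interval 12.2% to 42.1%), against 66.1% (57.3% to 73.9%) of the 121 A entries in the other 36 loci. The intervals cover counting error only and treat the entries of a locus as independent. Rora was set against the rest because its gap was the widest, so the intervals are no test of it. The 22 unreplicated A entries had fold enrichments of 6.08 to 12.5, with a median of 8.54, and the replicated ones a median of 12.9 in A. The strongest replicated peak, at chr9:69092079-69092497, had 16.9 in A and 16.6 in B and lay 438 kb downstream of the start. The start itself had an entry in A, with 7.95, and none in B. All 7 replicated peaks lay deep in the gene, 160 to 636 kb from the start.

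**Figure D4:**
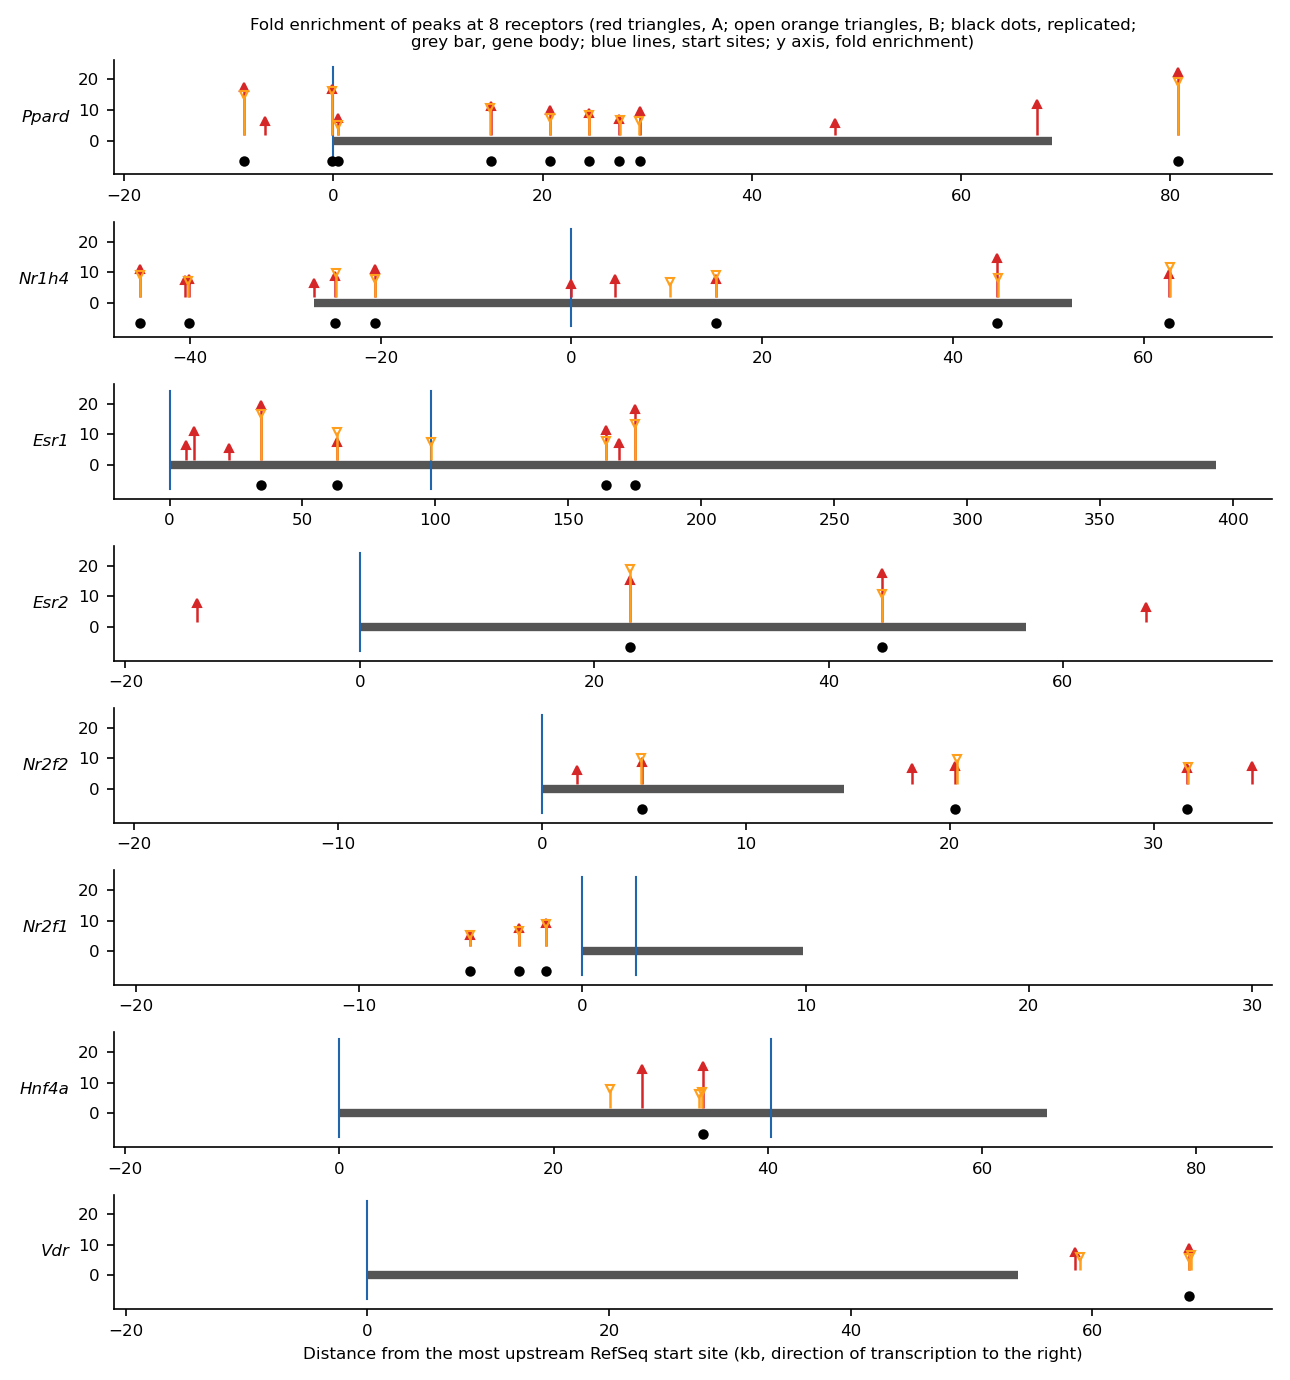
Fold enrichment (y axis) of the entries of A (red) and B (orange) against distance in kb from the most upstream RefSeq start site (x axis) at 8 receptors, with replicated peaks as black dots, the gene body as a grey bar and start sites as blue lines. Ppard has a peak at its start, while at Nr1h4, Esr1, Esr2, Nr2f2, Nr2f1, Hnf4a and Vdr every black dot stands away from the blue lines.

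Among the hepatocyte receptors, Nr1h4 stood apart by its number of peaks. It encodes the bile acid receptor FXR and had 11 entries in A, 8 in B and 7 in both. That number was reached by 2.01% of protein-coding genes and by 4 of the 37 receptors. The gene is 79.4 kb long, against a median of 17.2 kb over all genes. Of the 7, 4 lay in the gene, which spans chr10:89454234-89533645, and 5 had its start as the nearest one. Their positions flank the start on both sides. The strongest in the body by A was at chr10:89461897-89462129 (14.5 in A and 7.95 in B), 44.5 kb downstream of the start. The upstream pair at chr10:89527150-89527401 and chr10:89531179-89531665 had 11 and 8.81 in A and 7.69 and 9.8 in B. The listed start site, at chr10:89506658, lies inside the gene span, and so does this upstream pair. Further peaks lay 39.9 and 45 kb upstream of the start, which is 12953 and 18061 bp beyond the gene. At the start A had an entry of 6.12 that B lacked.

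Hnf4a, which encodes a defining transcription factor of hepatocytes, had 2 entries in A and 3 in B over chr2:163506811-163572907. The replicated peak at chr2:163540655-163540947 lay 6.21 kb upstream of the second start site of the gene, with 15.6 in A and 6.97 in B. Neither library had an entry within 1000 bp of either Hnf4a start. Hnf4g and Nr5a2, a receptor of liver and intestine and the phospholipid-binding receptor LRH-1, had no entry in either library over 152 and 118 kb of gene. Nr1i2, which encodes the drug sensor PXR, had 1 entry in A, with 7, outside the gene.

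Nr1i3 and Nr0b2 had replicated peaks only outside the genes. Nr1i3, which encodes the drug sensor CAR, had 2 entries in each library, both replicated, of which the stronger, at chr1:171222388-171222872 (16.1 in A and 17.4 in B), lay at starts of its neighbours Tomm40l and Apoa2. Nr0b2, which encodes the corepressor SHP, had 4 entries in A, 3 in B and 3 in both. That at chr4:133545929-133546226 (22.4 and 16.9) lay at a start of Nudc, and that at chr4:133557293-133557757 (14.9 and 9.35), 607 bp beyond the 3′ end of the gene, had the Nr0b2 start as the nearest one. Nr1h3, which encodes the oxysterol receptor LXR-alpha, had 4 entries in A, 2 in B and 1 replicated peak, 7.52 kb upstream of its nearest start site, at the 5′ end of the gene span and at a start of Acp2 (17.3 and 10.9). At its start sites A had entries with 8.91 and 6.44 and B had none. Thrb, the thyroid hormone receptor that dominates in hepatocytes, had 4 entries in each library, all replicated. Its start was open at chr14:17660783-17660935 (7.87 and 9.69), 0.643 kb from a start of LOC115488350, and 3 more peaks lay in the body, the strongest at chr14:17743077-17743598 (10.6 and 11.6). Counting only peaks nearest to a start of the receptor, 5 of 10 hepatocyte receptors and 7 of 9 stellate receptors had 1 or more, against 51.5% of all genes.

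The receptors that define steroid-producing cells had no peak in the locus. Nr5a1, which encodes SF-1, and Nr0b1, which encodes its antagonist DAX-1, had no entry in either library. Over all protein-coding genes, 71% had an entry in A and 67.6% in B. With a flank of 50 kb, Nr5a1 had 2 replicated peaks and Nr0b1 had 0. Nr6a1, a germ cell receptor and the neighbour of Nr5a1, had 4 entries in A, 3 in B and 3 in both, and an open start, with peaks at chr2:38926394-38926543 (7.25 in A and 11 in B) and chr2:38926653-38926851 (15.1 and 16.2). The other peak lay 38.5 kb upstream of its inner start site, with 11.8 and 11.3. Pgr, the progesterone receptor gene, had 1 entry in each library, a replicated peak 1699 bp beyond its far end (9.93 and 8.87). The estrogen receptor genes had replicated peaks inside the gene and none at a start. Esr1 (chr10:4611989-5005633) had 8 entries in A, 5 in B and 4 in both. The strongest, at chr10:4646128-4646432, had 19.5 in A and 16.5 in B, and another, at chr10:4787032-4787297, had 18.4 and 13.4. At its second start site B had an entry of 7.52 that A lacked. Esr2 (chr12:76120419-76177259) had 4 entries in A, 2 in B and 2 in both, with 17.6 and 10.9 at chr12:76132506-76132917 and 15.5 and 18.8 at chr12:76153986-76154340. All 10 replicated peaks of the class had the receptor's own start as the nearest one. With Esr1 counted as a hepatocyte receptor, a choice made after the data were seen, the numbers with a replicated peak were 8 of 11 and 3 of 5.

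Receptors of retina, nervous system and other organs had the fewest peaks. Nr2e1, a neural stem cell receptor, had no entry in either library, and Esrrb had 1 in A alone, with 11. Rorb had an open start, at chr19:19111188-19111357, with 10.3 and 8.8, and no other entry of either library over 181 kb. Nr2e3, a photoreceptor gene, had 1 entry in each library, a replicated peak in the body with 19.2 in A and 7.52 in B. Esrrg had 2 entries in A, 1 in B and 1 replicated peak over 606 kb, 120 kb from the nearest start site (8.73 and 9.6).

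The 7 broadly used receptors had an entry of both libraries at each start. Besides Nr1d1, these were Nr1d2, which encodes REV-ERB-beta, the testicular receptor genes Nr2c1 and Nr2c2, the COUP-TF relative Nr2f6, the estrogen-related receptor gene Esrra, a regulator of mitochondrial genes, and Nr3c2, which encodes the mineralocorticoid receptor. Esrra had 21.3 in A and 12.9 in B at chr19:6921644-6922222, and Nr2c2 had 17.8 and 18.5 at chr6:92091872-92092461. The start peak of Nr1d2, at chr14:18238988-18239514, had 14.5 and 12.9, and a second peak followed 0.442 kb downstream of the start. Nr3c2 had 13.5 and 16.6, Nr2f6 13.3 and 14, and Nr2c1 9.25 and 14.4. Entries in A, in B and in both numbered 2, 2 and 2 at Nr1d2, 4, 3 and 3 at Nr2c1, 2, 2 and 2 at Nr2c2, 6, 5 and 5 at Nr2f6, 3, 2 and 2 at Esrra and 7, 2 and 2 at Nr3c2. Of the 22 replicated peaks of the class, 8 lay at the start of another gene, among them 4 of the 5 at Nr2f6, at starts of Use1, Ocel1, Babam1 or Ushbp1. Nr3c2 was the longest of the class, with 347 kb, and its body held 1 further replicated peak, 220 kb from the start, beside 5 entries of A that B lacked.

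The heights of the peaks were compared by place. The 16 peaks at an own start had median fold enrichments of 13.4 in A and 12.9 in B, the 38 elsewhere in gene bodies 11.2 and 9.33, and the 33 in flanks 10.3 and 9.54. Over all 87 the medians were 10.9 and 9.6, against 11.9 and 10.4 over all replicated peaks. The ratio of A to B had a median of 1.11, the same as over all replicated peaks. It exceeded 2 at 4 peaks, all in gene bodies away from starts: 2.55 at Nr2e3, 2.43 at Ppara, 2.37 at Rora and 2.24 at Hnf4a. No peak was more than 2 times higher in B. The lists hold no scaling that would turn these ratios into a difference in accessibility.

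**Figure D5:**
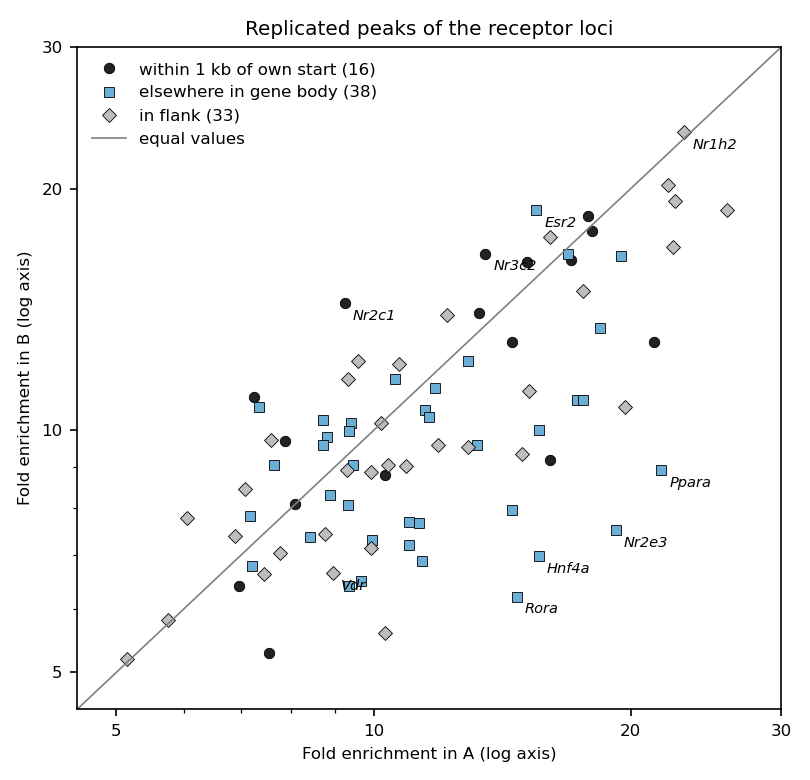
Fold enrichment in A (x axis, log scale) against B (y axis, log scale) for the 87 distinct replicated peaks of the receptor loci, as 16 peaks within 1 kb of an own start (black circles), 38 elsewhere in gene bodies (blue squares) and 33 in flanks (grey diamonds); the line marks equal values. The points lie around the line, and the labelled body peaks of Nr2e3, Ppara, Rora and Hnf4a lie farthest below it.

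Genes that receptors work with were counted in the same way. Coregulators, the proteins that receptors recruit to activate or repress, had replicated peaks at 15 of 15 loci, against 64.6% of all protein-coding genes. Open starts stood at 11 (73.3%), against 43.1% of all genes, and the median was 4 peaks per locus against 1. The list was chosen with earlier results known and was not matched to all genes in length. Its genes ran from 3077 bp (Gps2) to 661605 bp (Ppargc1a), against a median of 17.2 kb over all genes. The coactivator genes Ncoa3 and Ncoa1 had 6 each, and Med1, a Mediator subunit gene, had 5. The coactivator genes Ncoa2, Ppargc1a and Ppargc1b were among those without an open start.

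Known target genes were grouped by the receptors that regulate them, and are read against the 64.6% of all genes with a replicated peak and the 43.1% with an open start. Targets of stellate and broadly used receptors had replicated peaks at 17 of 17 loci and open starts at 14 (82.4%). Abca1, an LXR target that exports cholesterol, had 7, the glucocorticoid target Fkbp5 had 5, and the clock output gene Dbp and the PPAR target Angptl4 had 4 each. The 3 without an open start were Cyp24a1, the vitamin D target, Dusp1 and Hif3a. Targets of hepatocyte receptors had replicated peaks at 6 of 13 loci (46.2%) and open starts at 2 (15.4%), Abcb11 among them. Thrsp, the bile acid transporter gene Slc10a1 and the bile salt pump gene Abcb11 had 2 each. Cyp2c29 and Cyp2b10, drug-metabolising enzyme genes, had none. Targets of steroidogenic receptors had replicated peaks at 6 of 9 loci (66.7%), near the share of all genes, and no open start. Scarb1, a lipoprotein receptor gene with wider use, had 7, Amh had 2, and Star and Cyp17a1 had 1 each, while Cyp11a1 and Mc2r had none. These lists are short and were chosen with earlier results known, and several of their genes are also used in other tissues.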

How the data were processed

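Per the submitters' processing notes, the tools were MACS2, HOMER, bedtools, Picard, SAMtools and STAR 2.7.0, with no role given, and the build is mm10. Replicates were not pooled: 1 peak list was deposited per sample. The authors deposited for each peak a linear ratio (fold over local background), the caller's −log10 p and −log10 q, a score and a summit offset. The score deposited by the authors equals 10 times their −log10 q, cut to a whole number, for 99.9% of A entries. The least −log10 q among A entries was 3.04, and among B entries 3.00. Read shifting, filters and the cleaning of the lists are not given in the sources used here.

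Overlaps and counts were computed with Python 3.11.15, numpy 2.4.6, pandas 2.3.3, statsmodels 0.14.6 and matplotlib 3.10.9, and the counting steps were tested on simulated data. Coordinates are 1-based. Gene spans came from RefSeq for GRCm38.p6, in which all 37 receptors matched by symbol. Start sites were taken from the RefSeq promoter table for the 17492 genes it holds, and both gene ends for the rest. Where A entries overlapped several B entries, the strongest gave the B value. A peak in the flank or body of a second gene counts for both genes.

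Receptors, classes and gene lists were chosen with earlier results of these data known. All 37 receptors are named, with up to 3 of their best-ranked replicated peaks, or more where peaks form a series. From each list of other genes, up to 4 with the most replicated peaks and up to 2 with none are named, and others were named after their values were seen. A few items that this rule or a peak's position would name are not reported here. Alternatives were other flanks, windows, overlaps and peak thresholds, each library alone, nearest starts and merged entries. No test was made, because there is 1 group of 2 samples. The CpG ranges are arbitrary.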

Additional observations from a re-analysis of the deposited data

How the results depend on the processing

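Over 6 summary counts and their alternatives, 45 of 55 values stayed within 1.5 times the reported one. From B alone to A alone, the counts ran from 29 to 32 for receptors with an entry (67.6% and 71% of all genes), from 14 to 17 for open starts, from 8 to 9 for stellate and from 7 to 8 for hepatocyte receptors, and were 4 both times for steroidogenic and reproductive receptors. Receptors with a replicated peak numbered 24 in gene bodies alone (48.7% of all genes), 30 with a flank of 50 kb (73.5%) and 27 with a reciprocal overlap of 50% (63.7%). With the 10000 entries of highest −log10 q in each list, 15 of 37 receptors had a replicated peak (41.6% of all genes), among them 4 of 9 stellate, 3 of 10 hepatocyte and 3 of 6 steroidogenic and reproductive receptors, so the order of the class shares differed from that reported, 8 had an open start (23.8% of all genes), and 22 distinct peaks were left. With only the entries over their list's median −log10 q, 8 starts were open (32% of all genes) and 45 peaks were left. The number of distinct peaks, 87 as reported, was 53 in gene bodies alone and 56 with only peaks nearest to a start of the receptor. It ran from 98 with B alone to 150 with A alone. The reasons for these changes were not tested. Of 333 counts of single receptors over 9 alternatives, 230 stayed within 1.5 times. With either gene end used for every gene, an alternative chosen after seeing the data, 14 receptors had an open end: Nr1h3 and Nr0b2 were added and Nr3c2 was lost. With a window of 2500 bp Nr2f1 was added. No paired analysis was possible because there is 1 group. Read depth is unknown, so a closed start may lie below what these libraries could detect.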
